A study of Mus musculus with 12 samples.

Results

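Heparan sulfate is built by a small set of Golgi enzymes, and 10 of their genes were followed in cultured dorsal root ganglion (DRG) neurons of RiboTag mice. They are the NDSTs (Ndst1, Ndst2, Ndst3 and Ndst4), the polymerase genes Ext1 and Ext2, the epimerase gene Glce and the sulfotransferase genes Hs2st1, Hs6st1 and Hs6st2. The genes were selected on their symbol, with their pull-down and input values already known. Of the 10, 9 were among the 9112 genes of the count table of the Cre+ libraries, and all 10 were among the 14177 genes of the table of the Cre- libraries. Ndst2 was listed only in the latter. All listed members passed the filter for low values, a mean FPKM above 1 in the table. The members' values of pull-down against input, and the differences between the labels made from them, are therefore a description. Where a member is said to be past the cutoffs used for all genes, this gives its place among them and is no test of the member. For the members, only the comparison of inputs was tested.

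RiboTag mice carry an HA-tagged copy of the ribosomal protein Rpl22 that is switched on by Cre recombinase, and HA immunoprecipitation then retrieves the RNA bound to tagged ribosomes. All mice were male and Rpl22HA/HA, 3 to 6 months old by the labels. In Runx3-Cre+ mice the recombinase is made from the Runx3 gene, which marks proprioceptive neurons, and Runx3-Cre- littermates served as the control for background binding. Neurons of all ganglia were purified on Percoll and kept for 24 h in F12 medium with serum, and each sample pooled 5 mice. Each genotype gave 3 RiboTag pull-downs and 3 inputs, the input being 10% of the lysate, 12 libraries in all. The numbers of the Cre+ libraries only tell them apart.

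Heparan sulfate chains grow on core proteins such as syndecans and glypicans, and bind growth factors, guidance cues and matrix proteins. EXT1 and EXT2 together lengthen the chain from alternating glucuronic acid and N-acetylglucosamine. NDSTs remove acetyl groups and put sulfate in their place, which is the first change made to the chain and sets where later enzymes act. GLCE then turns glucuronic into iduronic acid, HS2ST1 sulfates the uronic acid, and HS6ST1 and HS6ST2 sulfate the glucosamine. In sensory neurons these chains are known for their part in axon growth and guidance.

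Total counts on listed genes were between 8886308 and 18633365 per library, and totals of the Cre- pull-downs exceeded those of the other libraries. Levels are given as normalized counts, which are counts per 1000000 after TMM scaling (edgeR's correction for library composition) over all 12 libraries. The Cre+ pull-downs were the least alike, with correlations of log counts across genes of 0.71 to 0.846 between pairs of libraries, against 0.922 to 0.978 within the other groups. Runx3 had 23.3, 2.19 and 11.6 normalized counts in the Cre+ pull-downs, against 4.44, 2.49 and 5.73 in their inputs. It had 20.1, 34.8 and 49.9 in the Cre- pull-downs, against 4.65, 1.86 and 2.85 in their inputs. Runx3 thus stood above all inputs in the Cre- pull-downs and overlapped with them in those of Cre+, which goes against the labels. Each direction below follows the labels as deposited, and Cre+ and Cre- stand for the library labelled so. The summed level of 5 proprioceptor markers was 371 to 539 in the Cre+ pull-downs and 1160 to 1440 in those of Cre-, against 184 to 281 in the 6 inputs. Most of that gap between the labels came from Spp1 and Etv1. Pvalb, the remaining marker of this list, was not listed for the Cre+ libraries and is not in the sums. It had 56.9, 56.9 and 63.3 normalized counts in the Cre- pull-downs against 8.04, 7.21 and 7.57 in their inputs. Ntrk3, the receptor of proprioceptors for neurotrophin-3, was above all inputs (51.9 to 89.2) in both, at 349, 275 and 269 in the Cre+ pull-downs and 261, 325 and 306 in those of Cre-, which overlap. Pan-neuronal markers (9 genes) summed to 22500 to 25300 in the Cre+ pull-downs, 47100 to 54200 in the Cre- pull-downs and 21300 to 28400 in the inputs. Nefl, Nefm and Snap25 made up most of that sum, whereas Rbfox3 was lower in the Cre- pull-downs (161 to 180) than in those of Cre+ (241 to 326). Of the 8 glial markers, 4 were in both tables, and they summed to 176 to 331 in the Cre+ pull-downs, 486 to 564 in the Cre- pull-downs and 305 to 577 in the inputs. Of the 6 fibroblast markers, 4 were in both tables, summing to 69.7 to 78.6, 24.2 to 81.1 and 63.5 to 99.1, and of the 6 macrophage markers 2 were, summing to 5.06 to 115, 23.1 to 53.8 and 27.0 to 115. Fewer cells of a type and less RNA per cell cannot be told apart in such bulk libraries. What these shifts contribute to the values below was not tested.

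Ndst3 and Ndst4, which the next results set apart, are close paralogs on chromosome 3 of GRCm38 (the mm10 build of the counts). Ndst3 lies on the minus strand from 123526166 to 123691174 and Ndst4 on the plus strand from 125404029 to 125728351. Their longest identical coding stretch has 56 bases, against 14 to 23 bases in every other pair of the 4 NDST genes. The 136 coding bases around that stretch are shown for both genes because reads falling inside it fit either gene, and the counts were made from uniquely mapped reads. Capitals mark the shared 56 bases, and the flanks differ at 17 positions. Both sequences were read 5′ to 3′ on the gene's own strand from GRCm38, at chr3:123627965-123628100 (minus strand) for Ndst3 and chr3:125570755-125570890 (plus strand) for Ndst4, each within 1 coding exon.
Ndst3: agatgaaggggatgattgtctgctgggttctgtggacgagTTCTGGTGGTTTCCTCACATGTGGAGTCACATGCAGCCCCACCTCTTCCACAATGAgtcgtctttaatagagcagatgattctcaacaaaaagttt
Ndst4: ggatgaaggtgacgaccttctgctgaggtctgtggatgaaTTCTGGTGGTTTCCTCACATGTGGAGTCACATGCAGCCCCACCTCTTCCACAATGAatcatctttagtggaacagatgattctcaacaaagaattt
Of the 50-base windows of each transcript, 7 were shared between both genes. This was 0.132% of the windows of Ndst3, and 0.57% of those of Ndst4 were shared with any other gene. Neither gene had exon bases overlapping another annotated gene.

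Ndst4, an NDST with strong sulfotransferase but weak deacetylase activity in vitro, had the highest ratio of pull-down to input of the members under both labels. The Cre- pull-downs had 113, 136 and 130 normalized counts, and their inputs had 18.6, 18.5 and 14.8. Every pull-down was far above every input, and the 3 pull-downs lay close together. The log2 fold change was 2.90 (standard error 0.20), at rank 36 of the 11526 genes tested. In the Cre+ libraries, the pull-downs had 35.4, 32.5 and 54.1 and the inputs 10.7, 11.3 and 7.45. Here too every pull-down was above every input, at a lower level than in the Cre- pull-downs. The log2 fold change was 2.05 (standard error 0.56), at rank 312 of 8947 genes. The ranges of the Cre+ and Cre- pull-downs did not overlap, whereas the difference of both log2 fold changes, Cre+ minus Cre-, was -0.82 (standard error 0.44). Ndst4 was at low levels in the inputs, where its raw counts were 117 to 228.

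Ndst1, the NDST found in most tissues, had opposite directions under the 2 labels. In the Cre+ libraries it had 506, 276 and 344 normalized counts in the pull-downs and 123, 189 and 218 in the inputs. The groups did not overlap, and pull-down 1 stood highest. In the Cre- libraries the pull-downs had 184, 142 and 115 and the inputs 173, 235 and 211. Of these pull-downs, 2 lay below all inputs and the other fell among them. The log2 fold change was 1.09 (standard error 0.34) in Cre+ and -0.46 (standard error 0.20) in Cre-. The difference was 1.58 (standard error 0.40), and 1.30 to 1.76 over all alternatives. The cutoffs used for all genes were an FDR (Benjamini-Hochberg adjusted p of edgeR's quasi-likelihood test) below 0.1 and a 2-fold change. Of the 9 members, 1 (Ndst1) was past them for this difference, beside 4.3% of all 9006 genes in either direction. It was not past them when any 1 input of either label, Cre- pull-down 2 or Cre- pull-down 3 was left out. In those fits 13 to 53 of all 9006 genes passed as higher and 30 to 85 as lower, against 207 and 180 with all libraries. Since the difference is made of the contrasts known when the members were chosen, nothing is read from the count of members.

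Ndst3, best known from the brain, was higher on average in the pull-downs under both labels, without a clear separation. The Cre+ pull-downs had 48.7, 109 and 120 normalized counts against 29.2, 33.9 and 55.5 in the inputs. Only pull-down 1 fell within the input range. The Cre- pull-downs had 43.6, 63.7 and 74.1 against 40.8, 43.7 and 49.98, again with pull-down 1 among the inputs. The log2 fold changes were 1.22 (standard error 0.48) and 0.46 (standard error 0.23).

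Ndst2, known from mast cell heparin and lying on chromosome 14 (20723730 to 20734570, minus strand), was the lowest of the members. It had 75, 38 and 16 raw counts in the Cre- pull-downs and 63, 52 and 80 in the inputs. After scaling these were 4.06, 2.49 and 1.15 normalized counts against 6.10, 4.21 and 6.00, so that every pull-down was below every input. The log2 fold change was -1.05 (standard error 0.56). The table of the Cre+ libraries holds only genes with at least 5 counts in each of its libraries, and no value was available there for Ndst2.

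**Figure D1:**
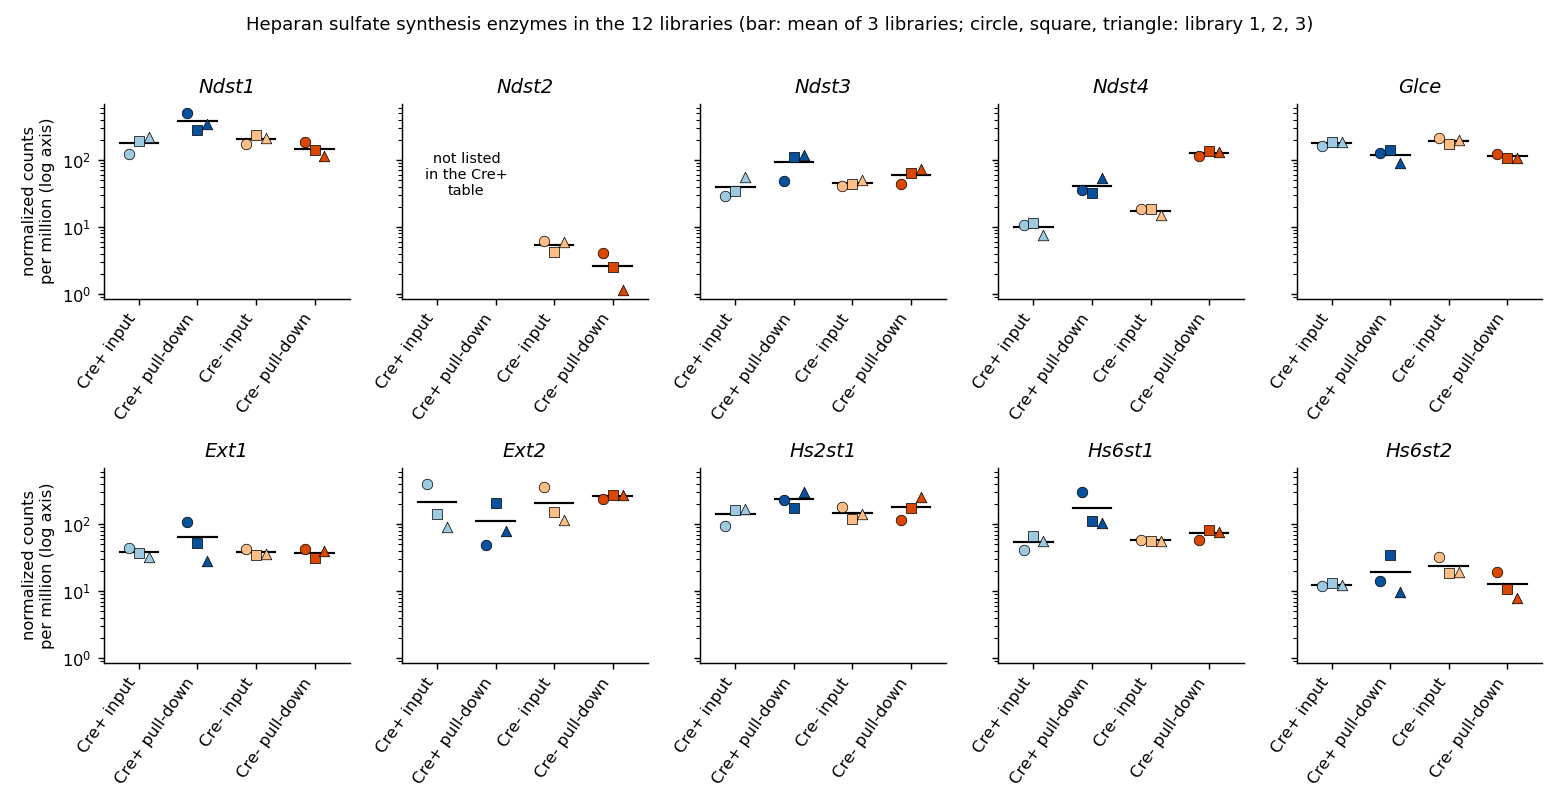
Normalized counts per 1000000 (log axis) of the 10 heparan sulfate synthesis genes in each of the 12 libraries, by group, with a bar at the mean of 3 libraries. Marker shapes tell the libraries of a group apart; the pull-downs of Ndst4 lie above its inputs under both labels, at 113 to 136 in Cre- and 32.5 to 54.1 in Cre+.

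The make-up of the NDST transcripts was compared per transcript length, as the share of each gene in the sum of Ndst1, Ndst3 and Ndst4. In the 6 inputs Ndst1 made up 73.8% to 79.8%, Ndst3 16.3% to 22% and Ndst4 2.13% to 6.48%. The inputs of both genotypes thus had nearly the same mixture. In the Cre- pull-downs, Ndst4 made up 28.3%, 34.1% and 34.9%, and Ndst1 made up 56.5%, 43.6% and 37.5%. Here Ndst4 exceeded its share in any input and Ndst1 fell short of its own. In the Cre+ pull-downs, Ndst4 made up 4.91%, 6.25% and 8.43%, which overlapped with the inputs, and Ndst1 made up 85.7%, 64.7% and 65.6%. The summed level of the 3 genes per kilobase was 84.7 ± 13.6 normalized counts (SD, n = 3) in the Cre+ pull-downs against 37.8 ± 10.1 in their inputs, and 52.6 ± 1.94 in the Cre- pull-downs against 44.7 ± 5.46 in theirs. Adding Ndst2 in the Cre- libraries changed little, since its share was 3.08% ± 0.879 (SD, n = 3) in the inputs and 1.22% ± 0.657 in the pull-downs.

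**Figure D2:**
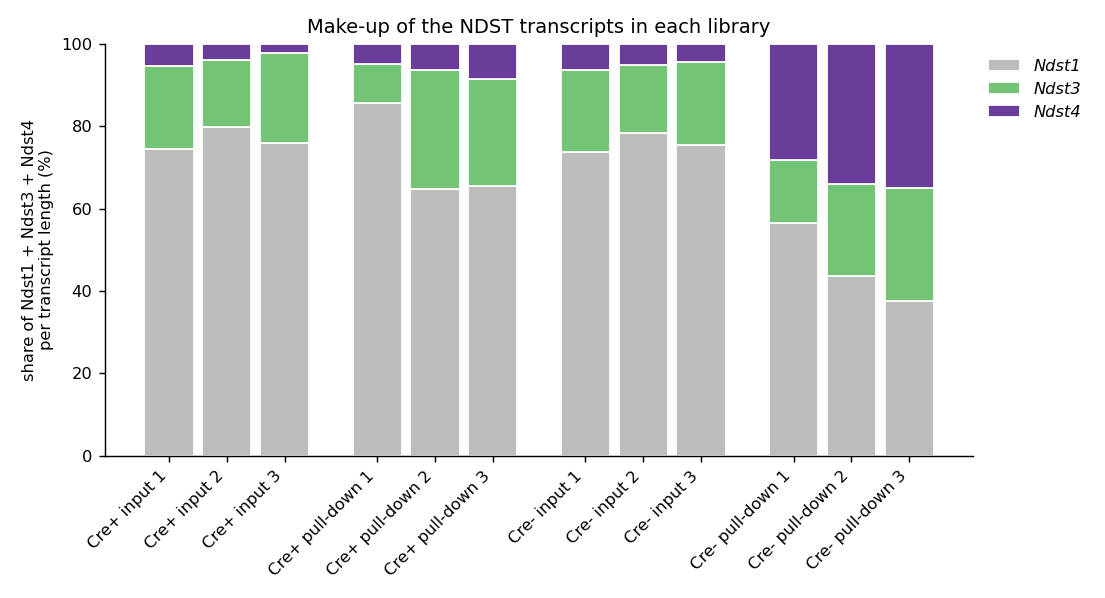
Share of Ndst1, Ndst3 and Ndst4 in their sum per transcript length (percent, vertical axis) in each library. Ndst4 takes 28.3% to 34.9% in the Cre- pull-downs and 2.13% to 8.43% in the other 9 libraries.

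The 2 polymerase genes, Ext1 on chromosome 15 (53068261 to 53346183, minus strand) and Ext2 on chromosome 2 (93695631 to 93822568, minus strand), did not separate pull-down from input. Ext1 had 109, 52.9 and 28.5 normalized counts in the Cre+ pull-downs and 44.2, 37.3 and 32.7 in the inputs. Its pull-downs lay on both sides of the inputs, with a log2 fold change of 0.74 (standard error 0.54). In the Cre- libraries the pull-downs had 42.6, 30.9 and 39.5 and the inputs 43.1, 35.0 and 36.4, with a log2 fold change of 0.01 (standard error 0.22). Ext2 was among the most variable members even in total RNA. Its inputs had 405, 140 and 89.7 normalized counts in Cre+ and 354, 152 and 114 in Cre-, and input 1 was the highest under both labels. The Cre- pull-downs were close together at 234, 276 and 269, within the range of their inputs. Those labelled Cre+ had 49.6, 207 and 78.6. The log2 fold change of Ext2 was -0.93 (standard error 0.64) in Cre+ and 0.36 (standard error 0.38) in Cre-. Without Cre+ input 1 the former was -0.05, and without Cre- input 1 the latter was 0.99.

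Glce, on chromosome 9 from 62057244 to 62122609 (minus strand), was the one member that lay lower in every pull-down than in every input under both labels. The Cre+ pull-downs had 129, 142 and 90.2 normalized counts against 163, 183 and 186 in the inputs. The Cre- pull-downs had 122, 108 and 108 against 212, 173 and 198. The log2 fold changes were -0.56 (standard error 0.30) and -0.76 (standard error 0.16), each under 2-fold. The difference between the labels was 0.23 (standard error 0.31).

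Hs2st1, on chromosome 3 from 144429701 to 144570216 (minus strand), had its highest mean in the Cre+ pull-downs, with ranges that overlapped or nearly met. The Cre+ pull-downs had 229, 173 and 299 normalized counts against 93.7, 160 and 171 in the inputs, and those of Cre- had 116, 173 and 258 against 180, 120 and 144. The log2 fold change was 0.72 (standard error 0.34) in Cre+ and 0.33 (standard error 0.26) in Cre-. Pull-down and input did not separate under the label Cre-. Under the label Cre+ the lowest pull-down and the highest input were nearly level, and changed places when the Cre+ libraries were scaled alone.

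Hs6st1 had a log2 fold change of 1.68 (standard error 0.48) in the Cre+ libraries. Its pull-downs had 307, 110 and 105 normalized counts against 41.4, 66.1 and 56.2 in the inputs, so all were above the inputs, and pull-down 1 stood far above the others. Hs6st1 lies on chromosome 1 from 36068400 to 36106446 (plus strand). In the Cre- libraries the pull-downs had 58.0, 82.6 and 77.3 against 58.5, 56.3 and 57.0, a log2 fold change of 0.37 (standard error 0.19). The difference between the labels, Cre+ minus Cre-, was 1.33 (standard error 0.53), and 0.64 without Cre+ pull-down 1. The lowest of these pull-downs was level with the inputs; it fell just below 1 input on the scale of all 12 libraries and above all 3 when the Cre- libraries were scaled alone. Of the exon bases of Hs6st1, 8.07% overlap the antisense gene Gm37335, and the use of strand in the counting is not given in the sources used here, so that reads of both genes cannot be told apart there. Hs6st2, on chromosome X from 51386637 to 51681705 (minus strand), was low throughout. It had 14.3, 34.3 and 9.64 normalized counts in the Cre+ pull-downs against 11.9, 13.4 and 12.3, and 19.4, 10.7 and 8.01 in those of Cre- against 32.3, 18.8 and 19.5. The log2 fold changes were 0.62 (standard error 0.66) and -0.86 (standard error 0.37), and pull-downs and inputs overlapped under both labels. The difference was 1.52 (standard error 0.75). Without Cre+ pull-down 2 the value in Cre+ was -0.04 and the difference 0.82.

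The pull-down labelled Cre+ in which Ndst1, Ext1 and Hs6st1 were highest was the same library, and it also had the most endothelial transcripts. Of 5 endothelial markers 4 were in both tables, none at 0, and they summed to 527 normalized counts in that library, 122 and 151 in the other Cre+ pull-downs and 51.8 to 98.1 in the Cre+ inputs. In the Cre- libraries they summed to 137, 19.8 and 23.7 in the pull-downs and 67.5 to 92.8 in the inputs. The 2 macrophage markers summed to 115 in the same library, 17.7 and 5.06 in the other Cre+ pull-downs and 27.0 to 70.8 in the Cre+ inputs. The glial gene Sox10 had 106 there, 50.4 and 9.996 in the other pull-downs and 16.8 to 102 in the inputs. The part of these transcripts in the values of Ndst1, Ext1 and Hs6st1 was not tested. Without this library the log2 fold change of Ndst1 was 0.84, that of Ext1 0.12 and that of Hs6st1 1.004.

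**Figure D3:**
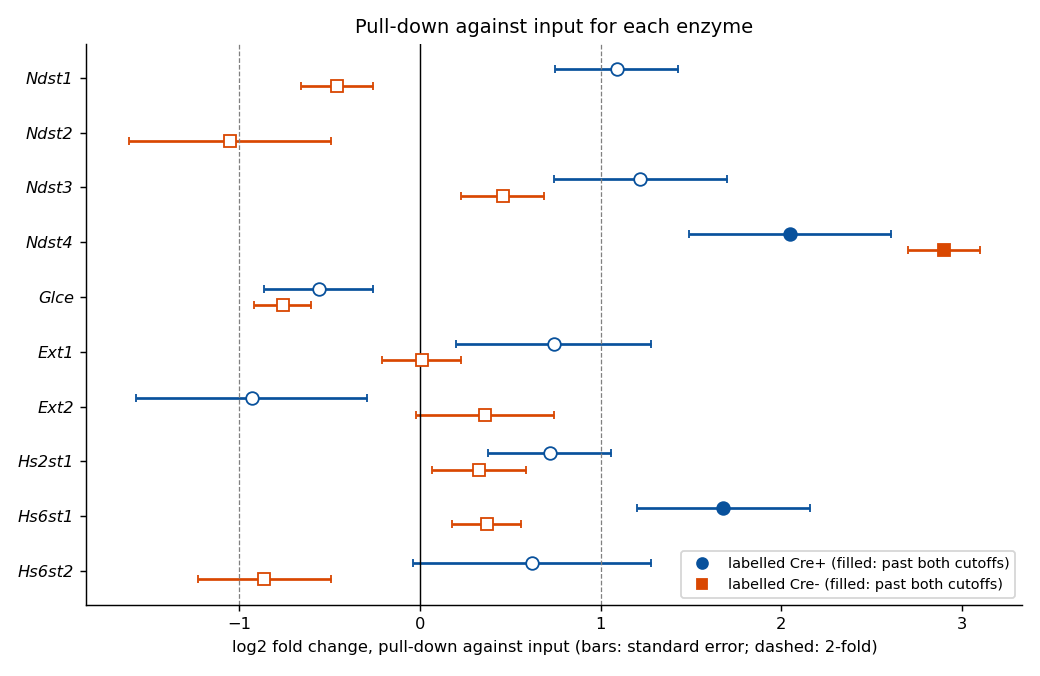
Log2 fold change of pull-down against input (horizontal axis, bars show the standard error) for each gene in the Cre+ libraries (circles) and Cre- (squares), with dashed lines at a 2-fold change. Filled symbols, Ndst4 under both labels (2.05 and 2.90) and Hs6st1 under Cre+ (1.68), were past an FDR below 0.1 and 2-fold, which is a description of genes chosen with these values known.

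Counted over the members, 2 of 9 were past the cutoffs with the pull-down higher in the Cre+ libraries (Ndst4 and Hs6st1) and none with the pull-down lower. Neither was past them when any 1 of the 3 Cre+ inputs was left out, with upper-quartile scaling or with library size alone, nor was Ndst4 without Cre+ pull-down 3. Few of all 8947 genes passed without a Cre+ input. Without input 1, 2 or 3 these were 7, 59 and 4 as higher and 0, 15 and 0 as lower. With all 6 Cre+ libraries, 4.72% of all genes passed as higher and 2.19% as lower. In the Cre- libraries, 1 of 10 was past them as higher (Ndst4) and none as lower, against 6.01% and 5.83% of all genes. Since the choice of genes used these contrasts, nothing is read from the counts. In Cre+ every pull-down was above every input for 3 members (Ndst1, Ndst4 and Hs6st1; 15.5% of all genes), on the scale of the Cre+ table, and below for 1 member (Glce; 17.9% of all genes). In Cre-, on the scale of that table, this was so for 2 members above (Ndst4 and Hs6st1; 18.2% of all genes) and 2 below (Glce and Ndst2; 18.6% of all genes). The median log2 fold change of the members was 0.74 in Cre+ and 0.17 in Cre-, beside 0.08 and -0.04 over all genes tested. Of the members, 7 of 9 had a positive log2 fold change in Cre+ and 6 of 10 in Cre-.

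Total RNA of the cultures before the pull-down was the comparison that the choice of genes did not use. No member differed between Cre+ and Cre- inputs at the cutoffs (edgeR quasi-likelihood test, 9 members tested). DESeq2 called 0, and 2 of the 9 had an unadjusted p below 0.05 in edgeR. Of all 9006 genes tested 0% were called by edgeR and 1 gene, no member, by DESeq2, and 182 had an unadjusted p below 0.05. The largest differences among the members were those of Hs6st2 and Ndst4. Hs6st2 had a log2 difference, Cre+ minus Cre-, of -0.91 (standard error 0.30, adjusted p = 0.998, edgeR), and Ndst4 one of -0.82 (standard error 0.31, adjusted p = 0.998, edgeR). For both, every input labelled Cre+ lay below every input labelled Cre-, as for 3.9% of all genes. The other 7 members differed by -0.23 to 0.03 on the log2 scale, with the value nearest to 0 for Ext1 at -0.01.

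Levels between genes were compared per kilobase of transcript. In the inputs Ext2 led on average, with 73.6 ± 58.9 normalized counts per kilobase (SD, n = 3) in Cre+ and 72.0 ± 44.9 in Cre-, followed by Glce at 38.3 ± 2.73 and 42.1 ± 4.25, Ndst1 at 29.1 ± 7.99 and 34.01 ± 5.10, and Hs2st1 at 23.0 ± 6.80 and 24.0 ± 4.85. Neighbours among these 4 overlapped in their libraries. Hs6st1 came next at 14.7 ± 3.34 and 15.4 ± 0.303, above Ndst3 at 7.41 ± 2.63 and 8.40 ± 0.882 with no overlap under either label. Ndst4 was the lowest of the 9 in both, at 1.32 ± 0.280 and 2.33 ± 0.288, and Ndst2 lay below it in Cre- at 1.39 ± 0.272. In the Cre- pull-downs Ext2 stood apart at 90.3 ± 7.83, Hs2st1, Glce, Ndst1, Hs6st1 and Ndst4 followed at 29.5 to 17.04 with each neighbour overlapping the next, and Ndst4 at 17.04 ± 1.61 was above Ndst3 at 11.3 ± 2.91 with no overlap. In the Cre+ pull-downs every neighbouring pair overlapped, from Ndst1 at 61.8 ± 19.5 down to Hs6st2 at 4.47 ± 3.02, with Ndst4 last but one at 5.49 ± 1.58.

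The genes around these enzymes were followed through 62 further genes in 7 lists, with 31 tested in Cre+ libraries and 43 in Cre- libraries. The lists were drawn up by role, with earlier results of these data known. In Cre+ 2 of the 31 rose in the pull-down and 0 fell by edgeR, beside 4.72% and 2.19% of all genes. At an unadjusted p below 0.05 (edgeR) these were 7 higher and 1 lower, beside 2109 of all 8947 genes in either direction. DESeq2 called 6 higher and 0 lower, beside 1103 and 568 of all 8947 genes. In Cre- 3 of the 43 rose and 4 fell, beside 6.01% and 5.83% of all genes. At an unadjusted p below 0.05 (edgeR), 6 were higher and 8 lower there, beside 3576 of all 11526 genes in either direction. DESeq2 also called 3 higher and 4 lower, beside 763 and 718 of all 11526 genes. Both calls in Cre+, Papss2 and Hspg2, were lost when any 1 Cre+ input was left out. Most calls among all 8947 genes were lost there as well. Those left without Cre+ input 1, 2 or 3 were 7, 59 and 4 higher and 0, 15 and 0 lower. The medians over the lists were 0.11 and -0.20 on the log2 scale.

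Among the genes for the linkage region and for sugar and sulfate donors, 1 of 5 tested rose in Cre+. It was Papss2, which makes the sulfate donor PAPS. It had 18.6, 6.30 and 25.3 normalized counts in the Cre+ pull-downs and 1.81, 3.10 and 3.12 in the inputs (log2 fold change 2.64, standard error 0.75, FDR = 0.0946, edgeR quasi-likelihood test). Without Cre+ pull-down 3, with upper-quartile scaling and with library size alone it did not pass either, with FDRs of 0.118, 0.113 and 0.116 (edgeR). In Cre- its log2 fold change was 0.55 (FDR = 0.712, edgeR).

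Of the core proteins, 1 of 7 rose in Cre+ and 1 of 9 fell in Cre-. Hspg2, which encodes perlecan of basement membranes, had 456, 134 and 95.0 normalized counts in the Cre+ pull-downs and 31.0, 46.8 and 29.9 in the inputs (log2 fold change 2.68, standard error 0.59, FDR = 0.0549, edgeR). It was highest in the same library as the endothelial markers, and without that library its log2 fold change was 1.69. In Cre- the log2 value of Hspg2 was 0.01 (standard error 0.42, FDR = 0.992, edgeR). Sdc1, a syndecan known from epithelia and plasma cells, had 55.9, 62.2 and 65.2 in the Cre- pull-downs against 125, 213 and 279 in the inputs, and fell (-1.72, standard error 0.25, FDR = 0.000857, edgeR). In Cre+ its log2 fold change was -0.81 (FDR = 0.182, edgeR). The syndecan of neurons, Sdc3, had log2 fold changes of -0.28 and -0.20 in Cre+ and Cre-, and the glypican gene Gpc1 had -0.29 and -0.04, none past the cutoffs.

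Both sulfatase genes, whose secreted products remove 6-O-sulfate from finished chains, passed in the Cre- libraries, in opposite directions. Sulf2 had 79.5, 81.0 and 85.5 normalized counts in these pull-downs against 30.8, 22.4 and 21.5 in the inputs (log2 fold change 1.75, standard error 0.21, FDR = 0.000209, edgeR). Sulf1 had 9.30, 5.56 and 3.68 against 14.5, 16.5 and 18.4 (-1.38, standard error 0.38, FDR = 0.0253, edgeR), and was not called with all 12 libraries in one fit (FDR = 0.209, edgeR). In Cre+ their log2 fold changes were 1.10 and -0.22, with FDRs of 0.26 and 0.878 (edgeR).

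Of the other heparan sulfotransferases, 1 of 4 tested rose in Cre-. Hs3st2, a 3-O-sulfotransferase of neurons, had 51.9, 86.4 and 96.2 normalized counts in the Cre- pull-downs against 23.3, 21.2 and 16.4 in the inputs (log2 fold change 1.97, standard error 0.26, FDR = 0.000407, edgeR). In Cre+ it had 22.2, 25.1 and 9.15 against 21.9, 14.0 and 17.2, a log2 fold change of 0.08 (FDR = 0.949, edgeR). The difference of the 2 log2 fold changes was -1.85 (FDR = 0.124, edgeR), which did not pass.

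Lysosomal breakdown enzymes had 1 of 7 tested genes lower in the Cre- pull-downs. Ids, the iduronate sulfatase lost in Hunter syndrome, had 567, 558 and 474 normalized counts in the Cre- pull-downs against 1250, 1180 and 1200 in the inputs (log2 fold change -1.16, standard error 0.14, FDR = 0.000209, edgeR). In Cre+ its log2 fold change was 0.20 (FDR = 0.673, edgeR). The enzymes of chondroitin and dermatan sulfate, the sister chains made from the same linkage region, had 1 gene up and 1 down of 11 tested in Cre-. Chst15 rose in Cre- (81.9, 104 and 78.1 against 55.9, 31.1 and 34.2; log2 fold change 1.15, standard error 0.24, FDR = 0.00686, edgeR), and was under 2-fold without Cre- input 2 (0.995) and with library size alone (0.91), and not called with all 12 libraries in one fit (FDR = 0.251, edgeR). In Cre+ the pull-downs of Chst15 were also all above the inputs (154, 45.4 and 73.9 against 14.1, 34.3 and 43.8), and the log2 value was 1.57 with an FDR of 0.158 (edgeR), not called, while the difference between the labels was 0.45 (FDR = 0.744, edgeR). Csgalnact1, which starts chondroitin chains and so branches off from heparan sulfate, fell (9.79, 6.34 and 6.85 against 22.3, 17.5 and 16.2; -1.25, standard error 0.32, FDR = 0.0174, edgeR). The EXT-like genes start or cap the chain. Extl3 had 395, 537 and 428 normalized counts in the Cre+ pull-downs against 166, 257 and 256 in the inputs, and 189, 194 and 162 in those of Cre- against 204, 268 and 293. Its log2 fold changes were 0.998 (standard error 0.28, FDR = 0.0886, edgeR) and -0.46 (standard error 0.17, FDR = 0.0883, edgeR). Extl2 had -0.99 (standard error 0.59, FDR = 0.335, edgeR) and 0.60 (standard error 0.22, FDR = 0.0838, edgeR).

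**Figure D4:**
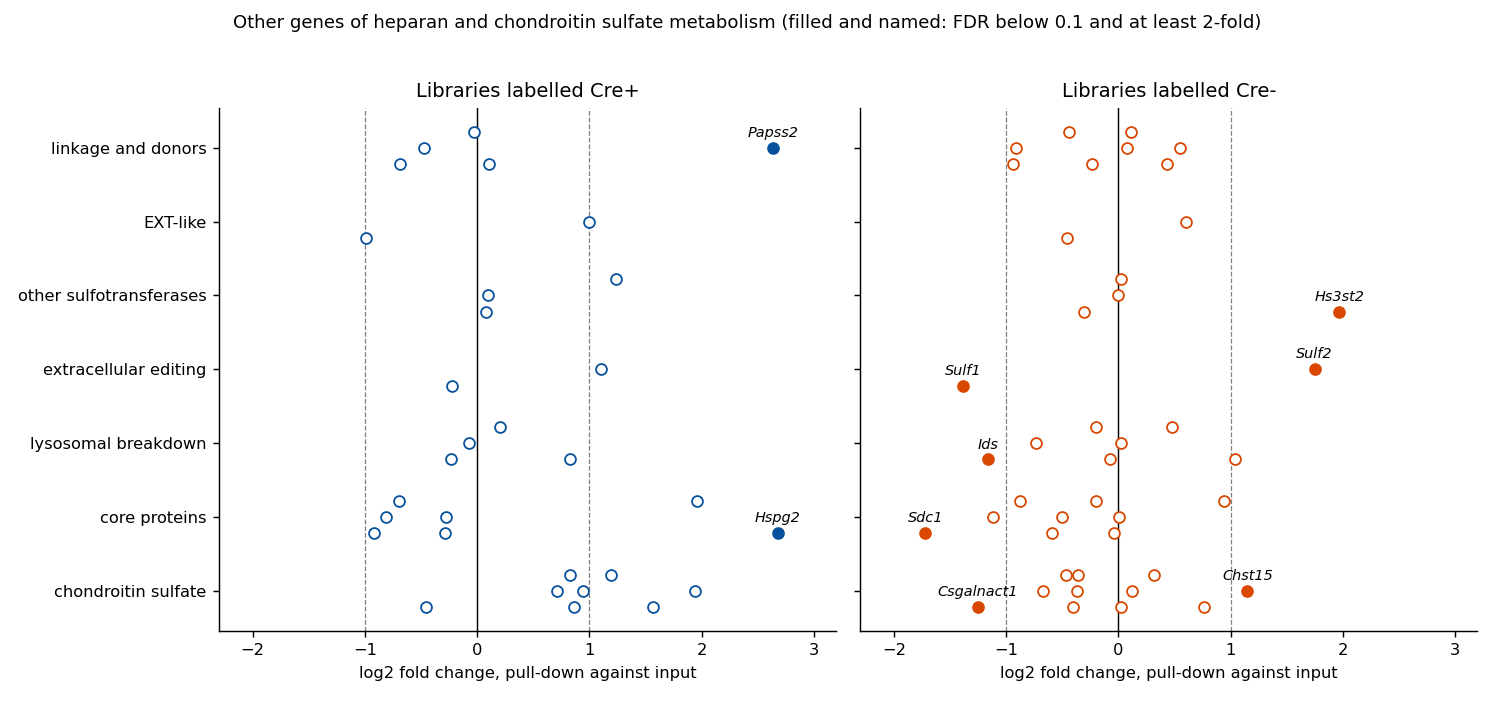
Log2 fold change of pull-down against input (horizontal axis) for each tested gene of the 7 lists, in the Cre+ libraries (left) and Cre- (right), with dashed lines at 2-fold. Filled, named symbols passed an FDR below 0.1 and 2-fold: 2 genes in Cre+, both higher, and 7 in Cre-, of which 3 were higher and 4 lower.

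The genes whose log2 normalized counts followed Ndst4 most closely over the 12 libraries were Atp11a (Pearson r = 0.988), Hspa12a (0.974), Sphkap (0.972), A230070E04Rik (0.966) and Slc6a17 (0.965). The 12 points fall into 4 groups of 3 and share their scaling, so that these values mainly compare the pattern of group levels. Their log2 fold changes of pull-down against input were 1.03 to 2.54 in Cre- and 0.49 to 1.66 in Cre+, which is a description, since the choice by likeness to Ndst4 used the same libraries.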

How the data were processed

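Libraries were grouped by genotype and RNA fraction as labelled. Cre+ table columns were assigned to their group only, since the pull-down names equal Cre- titles apart from punctuation. The authors aligned reads to mm10 with STAR and deposited, per genotype, the count of uniquely mapped fragments per gene (HTSeq, refSeq annotation), and per the file headers the mean FPKM over its libraries. The submitters' processing notes also name CASAVA 1.8.2. Their fold changes and p-values, and 18 columns of per-sample values, were not used. The sources do not say whether samples of a group came from separate mice, so p-values measure only the spread between these samples. The sources differ on the age of the mice and the library kit.

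The members, the gene lists and the named genes were chosen with earlier results of these data known. The named genes are the 10 members, those of the 7 lists that were called (Sdc3, Gpc1, Extl2 and Extl3 were added after their values were seen), the 5 genes most like Ndst4, and Runx3. Other markers (Ntrk3, Pvalb, Spp1, Etv1, Nefl, Nefm, Snap25, Rbfox3 and Sox10) were picked for naming after their values were seen. Genes with a deposited FPKM above 1 were tested on counts with edgeR 4.0.16 in R 4.3.3 (TMM, glmQLFit and glmQLFTest with robust estimation, 6 libraries per genotype, 12 for the difference), and called at an FDR below 0.1 and a 2-fold change. For the difference, the gene had to pass in at least 1 table. A standard error is the log2 fold change over the square root of F. Levels were scaled with TMM over 12 libraries and the 9112 shared genes. Lengths, exon overlaps and sequences came from GENCODE M21 (GRCm38). Alternatives were DESeq2 1.42.0, upper-quartile scaling, library size alone, no filter, at least 10 counts in at least 3 libraries, no fold limit, an FDR of 0.05, a fit of all 12 libraries, a replicate block (Cre-), each library left out and, chosen after seeing the data, no robust estimation. Figures were drawn with matplotlib 3.10.9. No molecular identifiers are named, so reads are not independent molecules.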

Additional observations from a re-analysis of the deposited data

Results flagged for a closer look

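The enrichment in the pull-down differed between the labels by the test of the difference itself for 3 of the 31 listed genes tested, beside 4.3% of all 9006 genes. Extl3, which starts heparan sulfate chains, had a difference, Cre+ minus Cre-, of 1.5 on the log2 scale (standard error 0.32, FDR = 0.0399, edgeR), with pull-downs above all inputs in Cre+ and below all inputs in Cre-. Ids had a difference of 1.39 (standard error 0.29, FDR = 0.0364, edgeR), from 0.20 in Cre+ and -1.16 in Cre-. Hspg2 had a difference of 2.69 (standard error 0.79, FDR = 0.09996, edgeR), next to the cutoff, and 1.69 without Cre+ pull-down 1. Without Cre- input 2, Cre- input 3 or Cre- pull-down 3, each of these 3 genes missed the cutoff, with FDRs of 0.14, 0.128 and 0.145 for Extl3 and 0.119, 0.107 and 0.14 for Ids (edgeR). Calls among all 9006 genes fell as well, from 207 higher and 180 lower. They were 13 and 30, 22 and 40, and 16 and 35 in these fits. Over the 18 alternatives the difference stayed between 1.27 and 1.63 for Extl3, and 1.16 and 1.53 for Ids. The markers of proprioceptors summed to more in Cre- pull-downs than in Cre+ pull-downs mostly through Spp1 and Etv1, with Ntrk3 overlapping. The pan-neuronal list did so through Nefl, Nefm and Snap25, with Rbfox3 the other way. Endothelial markers summed to 527, 122 and 151 in the Cre+ pull-downs and 137, 19.8 and 23.7 in those of Cre-. The part of these markers in these differences was not tested.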

How the results depend on the processing

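The members were chosen on these contrasts, so their counts past the cutoffs are a description. In Cre- the count of 1 member (Ndst4) became 2 with library size alone (Hs6st2 added), 2 with no fold limit (Glce added) and 1 to 3 with each library left out, with 3 only without Cre- pull-down 1. In Cre+ the count of 2 members became 0 with upper-quartile scaling, 1 with library size alone (Glce, lower), 4 with DESeq2, 0 at an FDR of 0.05, 4 with all 12 libraries in one fit (Ndst1, Ndst3, Ndst4 and Hs6st1, as with DESeq2) and 0 to 3 with each library left out, with 0 when any 1 of the 3 inputs was left out and 1 without pull-down 3. The 1 member past the cutoffs for the difference (Ndst1) became 0 with library size alone, 0 at an FDR of 0.05 and 0 to 2 with each library left out. It was 0 when any 1 input was left out or without Cre- pull-down 2 or 3, and 2 without Cre+ pull-down 2 or 3. Of the listed genes, the 2 called in Cre+ became 1 with upper-quartile scaling, 1 higher and 1 lower with library size alone, 6 with DESeq2, 0 at an FDR of 0.05, 7 with all 12 libraries and 0 to 4 with each library left out. The 7 in Cre- became 12 with no fold limit, 4 with all 12 libraries and 7 to 11 with each library left out. Papss2 and Hspg2 were no longer called in Cre+ without any 1 of the 3 inputs. No called gene changed direction. Calls over all genes moved too. With all 12 libraries they went from 422 higher and 196 lower to 1254 and 955 in Cre+. In Cre- they went from 693 and 672 to 270 and 173. Calls in Cre+ were 4 to 59 and 0 to 15 without 1 input. Without 1 pull-down they were 320 to 803 and 116 to 540. For the difference they were 13 to 717 and 30 to 697 with each library left out, against 207 and 180.

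Over all genes in Cre+, the median log2 fold change was 0.08 with TMM, -0.12 with upper-quartile scaling and -0.36 with library size alone, and the calls were 422 higher and 196 lower, 249 and 266, and 192 and 699. In Cre- they were 693 and 672 with TMM (median -0.04) and 429 and 1238 with library size alone (median -0.27). For the difference, 207 and 180 became 82 and 206 with upper-quartile scaling and 69 and 275 with library size alone. DESeq2 called 1103 higher and 568 lower in Cre+. The causes were not tested. Same-numbered Cre- pull-downs and inputs deviated together with r of 0.0674, 0.0284 and 0.124, each the highest for its input. Since 2 of the 3 were below 0.1, the numbers were not taken to pair the samples. With the replicate block 1 member was called in Cre-, and 8 listed genes instead of 7. No block was fitted in Cre+, where the column numbers were not used because the names could not be tied to single samples. Depth limits Ndst2 above all, with 16 to 80 counts per library.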
